A study of Mus musculus with 23 samples.

Results

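The genes described here are the G1/S and DNA replication genes, a list of 47 genes whose products carry a cell from G1 into S phase and copy its DNA. Their transcripts were read on CodeLink 1-colour arrays from whole mouse embryos, several to a pool. Members were found by their gene symbol in the platform's probe annotation, with no use of measured values. Of the 47 listed genes, 44 had a probe of their own (51 probes) and 42 were tested. Gins2 and Rrm1 had too few values on the control arrays. In all, 12651 named genes and 21979 probes were tested on an array of 36227 probes. Embryos of day 8.5 from crosses of p53 heterozygous mice were held for 10 minutes at 43 °C (heat) or at 38 °C (control), were genotyped, and were pooled by genotype and bath with 3 to 7 embryos in a pool. The groups were p53 +/+ control, p53 +/- control and p53 -/- control, p53 +/+ heat and p53 +/- heat, with 4 pools each (A to D), and p53 -/- heat, with 3 pools here (A to C). The labels give neither the strain, the p53 allele nor the time from the bath to collection, and they tie no pool to a litter, so a p-value measures the spread between these pools. In whole embryos, fewer cells of a type and less RNA per cell cannot be told apart.

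Before S phase, the origin recognition complex, Cdc6 and Cdt1 load the ring of Mcm2 to Mcm7 onto replication origins, and geminin blocks Cdt1 afterwards. Cyclin D with Cdk4 or Cdk6 and cyclin E with Cdk2 release the E2F factors from the retinoblastoma protein, and E2F raises transcription of many replication genes. The helicase then fires with Cdc45 and GINS, primase and the polymerases copy the strands on the Pcna clamp, and Rrm2, Tk1, Dut and Tyms supply nucleotides. p53 restrains this step through Cdkn1a (p21), an inhibitor of cyclin and Cdk complexes. Early embryos proliferate fast.

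Levels are relative intensities after quantile normalization between arrays, and differences are log2 fold changes ± SE from limma, fitted on all 21979 tested probes with Benjamini-Hochberg adjustment. A gene was called at an adjusted p under 0.05, and rose or fell is used for called genes alone. A gene stands for its brightest tested probe, and levels of different probes are not set against each other. No probe carries the symbol Trp53 alone (0 probes), and p53's own transcript was therefore not analysed here, nor the labels checked with it.

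Several pools stood apart from the rest of their labelled group. Cdkn1a, whose transcription p53 activates, measured 4.54 to 6.08 in the p53 +/+ control pools and 1.07 to 1.47 in the p53 -/- control pools. Within p53 +/- control it measured 5.41 and 5.25 in pools A and B but 1.29 and 1.45 in pools C and D. Within p53 +/- heat it measured 5.24, 4.96 and 5.49 in pools A to C and 1.92 in pool D. The p53 -/- heat pools A and B measured 3.93 and 4.65, and pool C measured 1.23, while p53 +/+ heat ran from 9.85 to 34.2. A score that contrasts pools A and B of p53 +/- control with its other 2 pools over probes of other genes ran from 0.0652 to 0.425 in p53 +/+ control and from -0.606 to -0.245 in p53 -/- control. It was -0.259 in p53 +/- heat pool D, and in p53 -/- heat it was 0.177 and 0.427 in pools A and B and -0.296 in pool C. The genotype labels are used as given. Counts of calls are also given without p53 +/- control C and D, p53 +/- heat D and, in turn, either p53 -/- heat C or p53 -/- heat A and B. These pools were chosen by their measured levels, so such counts are descriptions.

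Each array also had a second peak in its distribution of deposited intensities, at 45.1 to 68.3 on 19 arrays and at 31.9 to 39.2 on the 4 others (p53 +/+ control A, p53 +/- control A and B, p53 -/- heat B). Of the 42 members, 13 had a mean above 31.9. The deposited value of Rfc2 in p53 +/- control B was 41.1, and its normalized value was 50.6. The control arrays lack 7576 to 11666 values each and the heat arrays 129 to 203, and an effect of the bath and one of how the arrays were handled cannot be told apart.

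Promoter sequences are shown for the members whose levels the results turn on, because E2F binding words are the best known shared feature of this gene set. RefSeq promoter windows (GRCm38.p6, 250 bases before to 50 after a start site) were at hand for 38 of the 47 genes. The E2F words TTTGGCGC, TTTCCCGC, TTTGCCGC and TTTCGCGC, searched on both strands, were found in 15 of the 38 members (39.5%), against 704 of all 27025 genes (2.6%). Overlapping matches were counted separately. The 15 were Orc1, Cdc6, Cdt1, Mcm3, Mcm5, Mcm6, Mcm7, Pola1, Pold1, Rfc3, Lig1, Uhrf1, Cdk2, E2f2 and E2f3. CCAAT was found in 24 members (63.2%, against 41.1% of all genes) and TTTGAA in 5 (13.2%, against 20.2%). The 180 bases before the start site are printed 5′ to 3′ on the gene's own strand, with E2F words in capitals. Mcm7 (a word begins at base -165), Cdk2 (-140) and E2f3 (-11) hold 1 word each in this stretch and were called below, and the window of Mcm7 holds 1 more after the start site, at base 17:
Mcm7, chr5:138171884-138172063, minus strand: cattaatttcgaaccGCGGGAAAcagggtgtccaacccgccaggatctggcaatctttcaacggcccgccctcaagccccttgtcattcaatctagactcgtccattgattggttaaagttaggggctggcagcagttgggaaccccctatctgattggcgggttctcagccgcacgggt
Cdk2, chr10:128705052-128705231, minus strand: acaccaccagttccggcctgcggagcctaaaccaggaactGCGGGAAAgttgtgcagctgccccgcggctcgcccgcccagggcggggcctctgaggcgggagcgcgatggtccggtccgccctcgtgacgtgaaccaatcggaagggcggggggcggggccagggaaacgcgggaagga
E2f3, chr13:29986064-29986243, minus strand: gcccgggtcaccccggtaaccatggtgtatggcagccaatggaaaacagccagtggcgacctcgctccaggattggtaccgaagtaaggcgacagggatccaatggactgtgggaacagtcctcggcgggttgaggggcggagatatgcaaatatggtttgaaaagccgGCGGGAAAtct
Rpa2, Prim1 and Dut were called below and hold none of these words in the stretch shown, or elsewhere in their windows:
Rpa2, chr4:132768180-132768359, plus strand: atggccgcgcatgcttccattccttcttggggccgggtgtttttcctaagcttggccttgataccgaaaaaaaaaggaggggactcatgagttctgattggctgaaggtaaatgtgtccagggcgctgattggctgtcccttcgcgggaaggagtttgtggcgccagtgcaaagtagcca
Prim1, chr10:128015035-128015214, plus strand: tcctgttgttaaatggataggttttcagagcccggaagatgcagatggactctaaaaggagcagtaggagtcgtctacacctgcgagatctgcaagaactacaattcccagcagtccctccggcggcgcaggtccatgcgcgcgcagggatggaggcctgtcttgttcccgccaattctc
Dut, chr2:125247335-125247514, plus strand: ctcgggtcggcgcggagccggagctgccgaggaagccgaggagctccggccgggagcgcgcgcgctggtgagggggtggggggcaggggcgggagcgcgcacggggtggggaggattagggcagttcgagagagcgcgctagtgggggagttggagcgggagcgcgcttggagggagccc
Mcm6, called in no comparison, holds 3 words, an overlapping pair at bases -110 and -106 and 1 at -47:
Mcm6, chr1:128359706-128359885, minus strand: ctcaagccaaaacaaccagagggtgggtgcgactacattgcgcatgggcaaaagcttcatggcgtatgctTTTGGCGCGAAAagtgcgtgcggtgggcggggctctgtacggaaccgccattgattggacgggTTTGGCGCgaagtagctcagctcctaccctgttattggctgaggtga
Among the genes called below that were matched, some hold a word and some do not. A match is a description of the letters and says nothing on binding in these embryos.

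Over the 12 comparisons, 9 members were called 11 times, each time towards the lower level and in 4 of the comparisons. The share of members called was close to the share of all tested probes in most of them, as given with each count. The map of log2 fold changes shows Mcm7 and Ccnd3 with the widest range.

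**Figure D1:**
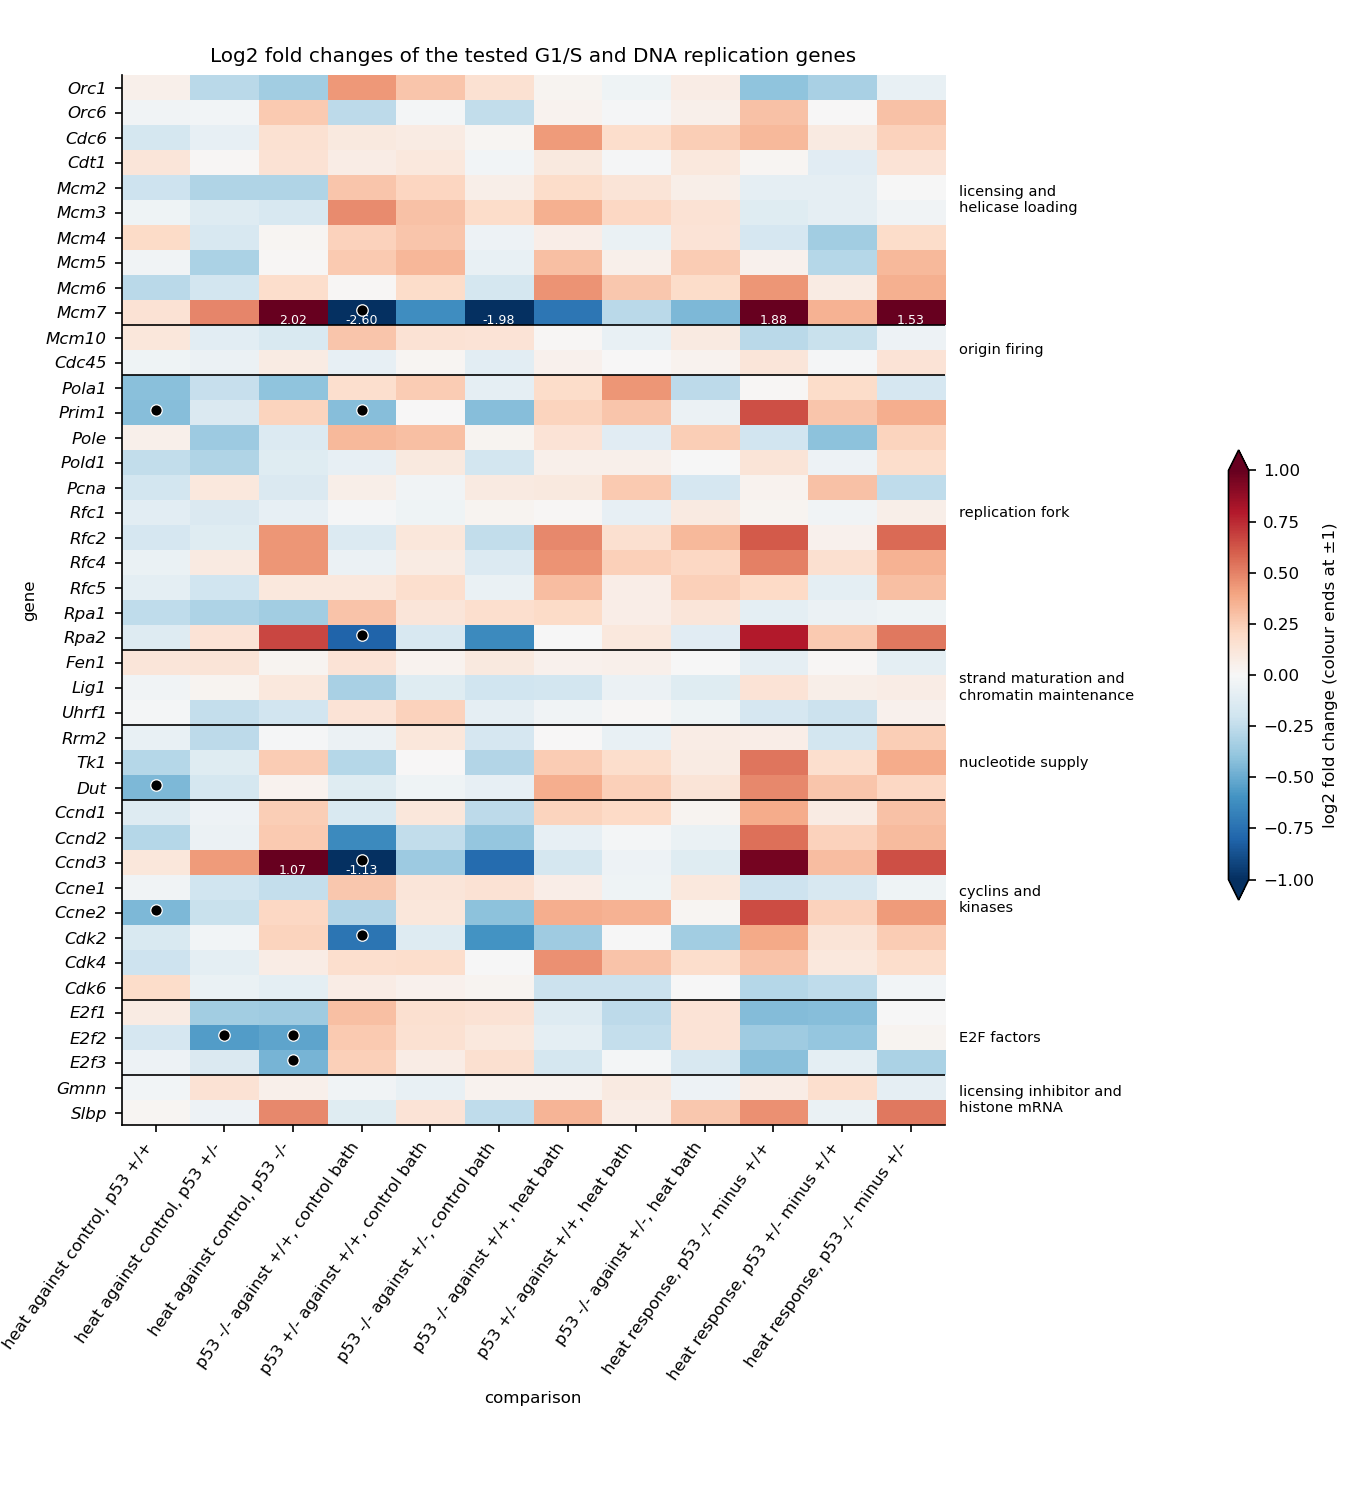
Log2 fold change of each tested member (rows, by role) in the 12 comparisons (columns), red for higher and blue for lower, with the colour ending at ±1 and larger values printed. Black dots mark the 11 calls at an adjusted p under 0.05 (limma), all of them lower, such as Mcm7 at -2.60 in p53 -/- against +/+ control pools.

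The comparison of p53 -/- with p53 +/+ control pools asks how embryos without p53 differ before any heat. Mcm7, a subunit of the helicase ring, Rpa2, which covers single-stranded DNA, Prim1, the catalytic subunit of primase, Ccnd3 (cyclin D3) and Cdk2 fell in p53 -/- pools. These were 5 of 42 members (11.9%), all lower, beside 8.36% of all tested probes called. At an unadjusted p under 0.05 in limma, 6 members were higher and 10 lower, beside 26.1% of all tested probes. The median member differed by 0.03 and the median of all probes by 0.04.

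Mcm7 measured 23.4, 20.9, 18.1 and 24.7 in p53 +/+ control pools A to D and 10.2, 4.09, 2.0 and 1.97 in p53 -/- control pools A to D. The groups did not overlap, and pools C and D were the lowest of the series. The difference was -2.60 ± 0.59 (adjusted p = 0.017, limma), a 6.04-fold lower mean on the log scale. In p53 +/- control, pools A and B measured 25 and 26.7 and pools C and D 6.92 and 8.56, so this group held values of both other genotypes. Of the 8 fits that left out 1 pool of these 2 groups, Mcm7 was no longer called in 2, without p53 -/- control C or without D. With the array score as a covariate its adjusted p was 0.406, but the score separates these 2 groups without overlap and so takes up the genotype difference itself.

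Ccnd3 measured 12, 11.7, 10.1 and 12.7 in p53 +/+ control pools and 8.25, 5.21, 4.80 and 3.78 in p53 -/- control pools, a difference of -1.13 ± 0.31 (adjusted p = 0.0318, limma). Rpa2 measured 25, 20.7, 20.9 and 22.4 against 18.3, 14.8, 11.5 and 8.51, a difference of -0.80 ± 0.22 (adjusted p = 0.0309, limma). Cdk2, the kinase of cyclin E and cyclin A, measured 12.3, 12.2, 11.3 and 14 against 11.2, 8.25, 7.00 and 4.88, a difference of -0.73 ± 0.22 (adjusted p = 0.0416, limma). In all 3 genes the p53 -/- pools lay below every p53 +/+ pool, with pool A nearest to them and pool D farthest. For Cdk2 the gap was narrow, 11.2 against 11.3. Each of the 3 genes lost its call in 7 of the 8 fits without 1 pool, all but the fit without p53 -/- control A.

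The pools of other groups with low Mcm7 were low in these genes too. Ccnd3 measured 13.5 and 13.8 in p53 +/- control A and B and 5.02 and 7.04 in C and D. Rpa2 measured 24 and 26.9 in the first pair and 14.9 and 16.2 in the second. Cdk2 measured 12.5 and 12.6, then 9.36 and 11.3. Ccnd2 (cyclin D2), which was not called (-0.64 ± 0.23, adjusted p = 0.0806, limma), measured 104 and 117 in A and B and 56.3 and 76.5 in C and D.

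After heat the same pools as for Cdkn1a stood low. In p53 +/- heat D, Mcm7 measured 5.87 against 33.4, 29.1 and 26.9 in pools A to C. In p53 -/- heat C it measured 4.90 against 29.0 and 21.3 in A and B. Ccnd3 measured 6.86 and 7.12 in these 2 pools, against 12.2 to 16 in the other pools of their groups. Other members ran the opposite way: Mcm3 measured 83.8 and 94.6 in them and 45.6 to 72.4 in the others. The score separates p53 +/+ from p53 -/- control pools, but was 0.47, 0.572, -0.524 and -0.433 in p53 +/- control A to D. The part of the split in the difference between p53 -/- and p53 +/+ control pools therefore cannot be told apart from genotype.

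**Figure D2:**
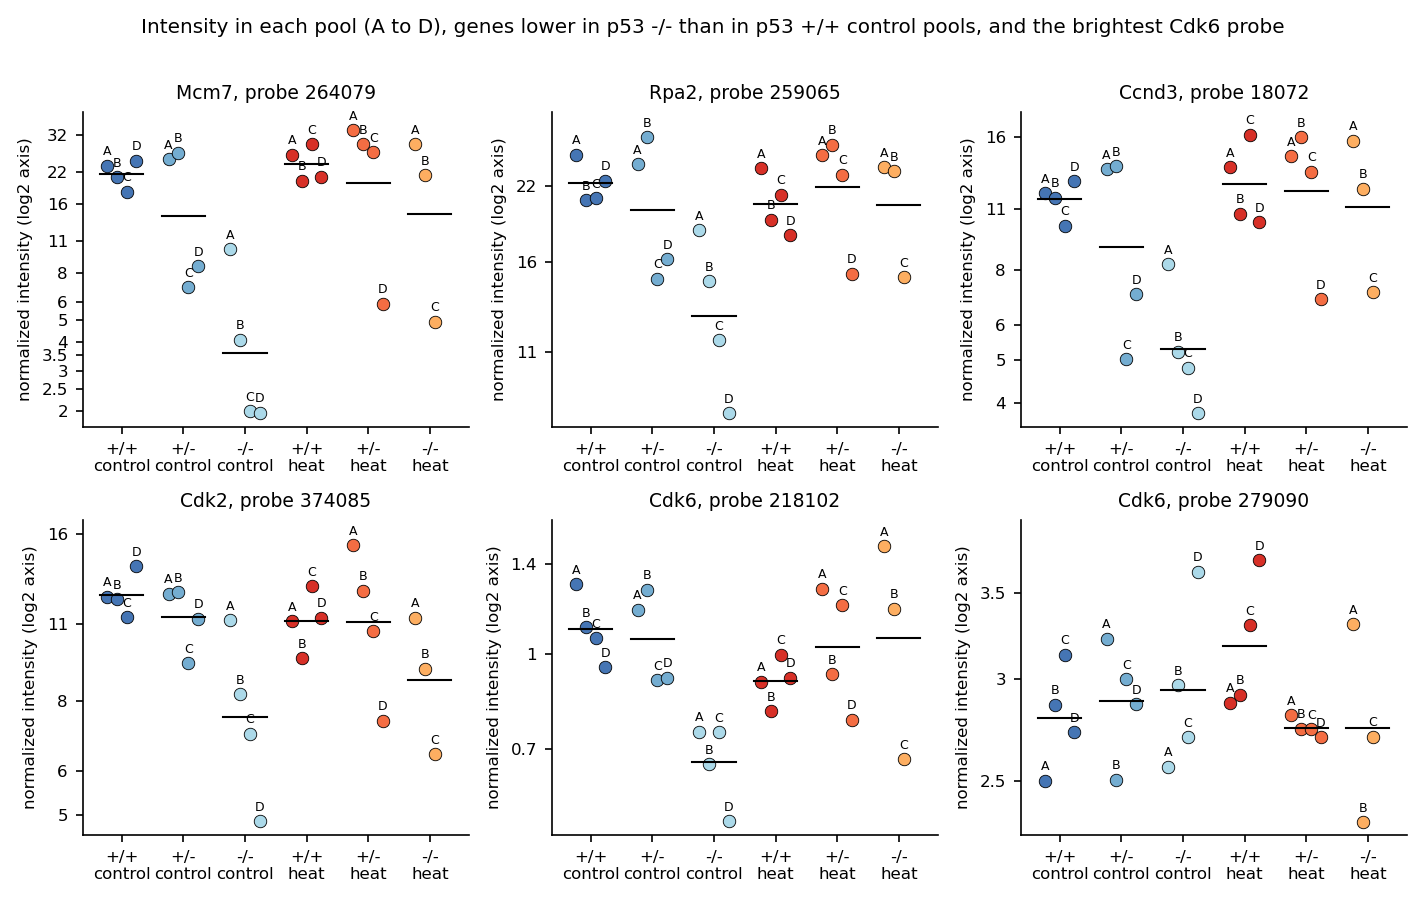
Normalized intensity (log2 axis) of Mcm7, Rpa2, Ccnd3, Cdk2 and 2 probes of Cdk6 in each pool (points A to D), with the mean of log values as a bar, for the 6 groups. Mcm7 runs from 18.1 to 24.7 in p53 +/+ control and from 1.97 to 10.2 in p53 -/- control, and p53 +/- control, p53 +/- heat and p53 -/- heat hold pools at both levels.

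Prim1 measured 20.6, 17.3, 16.4 and 18.8 in p53 +/+ control pools and 15.5, 12.5, 14.9 and 11.7 in p53 -/- control pools, a difference of -0.42 ± 0.11 (adjusted p = 0.024, limma). All p53 -/- pools lay below all p53 +/+ pools. The p53 +/- control pools measured 18.1, 20.9, 17.2 and 16.9. The first pair lay above the second, by less than for Mcm7, Ccnd3 and Rpa2. With the same covariate the adjusted p of Prim1 was 0.491. Prim1 lost its call in 5 of the 8 fits without 1 pool.

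The 3 tested probes of Cdk6, a partner of D cyclins, disagreed. Probe 218102 was called, with 1.30, 1.11, 1.06 and 0.951 in p53 +/+ control pools and 0.748, 0.662, 0.746 and 0.535 in p53 -/- control pools (-0.72 ± 0.20, adjusted p = 0.031, limma). Probe 223049 differed by -0.35 ± 0.31 and the brightest, probe 279090, by 0.07 ± 0.12, neither called. Probe 279090 measured 2.5, 2.87, 3.14 and 2.73 against 2.57, 2.97, 2.71 and 3.64, with overlapping groups. The call of probe 218102 was lost in 7 of the 8 fits without 1 pool. The array files do not say which transcript each probe reads.

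Members higher in p53 -/- control pools did not pass the test. Mcm3, a further subunit of the ring, differed by 0.47 ± 0.18 (adjusted p = 0.0925), Orc1 by 0.43 ± 0.16 (0.0848), Pole by 0.33 ± 0.11 (0.0597) and E2f1 by 0.30 ± 0.13 (0.135), all by limma. For these 4 genes, named after their values were seen, no p53 -/- pool overlapped a p53 +/+ pool. Orc1 measured 7.32 to 7.93 against 4.79 to 6.2. Other uncalled members lay apart too, such as E2f3 (7.98 to 8.91 against 6.48 to 7.54). How often groups lay apart over all tested probes was not counted, in this or any other comparison. Mcm10, which helps the helicase fire, differed by 0.28 ± 0.14 (adjusted p = 0.2, limma), the smallest p among the origin firing genes. Lig1, the ligase that seals Okazaki fragments, differed by -0.32 ± 0.12 (adjusted p = 0.0877, limma), the smallest p among the strand maturation genes.

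The number called in this comparison depended on the fit. It was 0 with the array score as a covariate, which parts the groups by genotype (beside 0.0546% of all probes). When 1 pool was left out it was 0 to 5, beside 1.4% to 8.87% (0 without p53 -/- control D, beside 2.04%). It was 15 of 41 (6 higher, 9 lower) in a fit of these 8 arrays alone, and 19 of 42 (9 higher, 10 lower) with array weights. The last 2 counts are 36.6% and 45.2% of the members, beside 26% and 27.7% of all probes called in the same fits. With the pools that stood apart left out of the other groups it was 12 (3 higher, 9 lower; 28.6%), beside 18.3% or 19.6% of all probes. Markers of mitosis, a list of 12 genes, had 2 of 11 tested members lower, with a summed intensity of 483.9 to 497.8 in 3 p53 +/+ control pools and 451.7 to 496.3 in 3 p53 -/- control pools with every value. Of the primitive red cell markers 2 of 5 tested were lower, with sums of 113.1 to 181 and 113.1 to 161.4. Their part in the members' differences was not tested.

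The p53 +/- control pools were compared with both other genotypes. None of the 42 members was called against p53 +/+ (0.00455% of all probes). An unadjusted p under 0.05 in limma was held by 2, beside 5.92% of all probes. The smallest adjusted p was 0.822, for Pole, the catalytic subunit of DNA polymerase epsilon. Against p53 -/-, 0 members were called (0.0455% of all probes), with 8 at an unadjusted p under 0.05, beside 18.2% of all probes. All 8 were lower in p53 -/-. Mcm7 differed there by -1.98 ± 0.59 (adjusted p = 0.159) and Prim1 by -0.43 ± 0.11 (adjusted p = 0.15, limma). No setting that kept all pools gave a call in either comparison. Without p53 +/- control C, 2 members were called in the second (4.76%, beside 3.07% of all probes), Prim1 at -0.45 and Mcm7 at -2.32. Without both C and D and the other pools apart, 13 or 14 of 42 were (31% or 33.3%), beside 29.9% or 31.5% of all probes, so these counts are near the array's own share.

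Heat against control in p53 +/+ embryos asks how the genes respond to the bath when p53 is intact. Dut, which breaks down dUTP, Ccne2 (cyclin E2) and Prim1 fell, 3 of 42 members (7.14%), beside 3.08% of all tested probes. At an unadjusted p under 0.05 in limma, 6 members were lower and 0 higher, beside 17.8% of all tested probes. The median member differed by -0.07 and the median of all probes by 0.01.

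Dut measured 112, 99.9, 98.3 and 96.8 in p53 +/+ control pools and 88.5, 84.3, 66.6 and 61.0 after heat. Every heat pool lay below every control pool, and heat pools C and D were the lowest of the series. The difference was -0.45 ± 0.11 (adjusted p = 0.02, limma). Ccne2 measured 5.93, 5.30, 4.86 and 6.04 in control and 4.70, 4.21, 3.81 and 3.52 after heat, a difference of -0.45 ± 0.11 (adjusted p = 0.0329, limma). Prim1 measured 15.1, 13.6, 14.1 and 11.7 after heat, all below its control pools, a difference of -0.42 ± 0.11 (adjusted p = 0.0369, limma). Its heat pools in p53 +/+ lay within the range of its p53 -/- control pools, 11.7 to 15.5.

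Leaving out p53 +/+ control A, p53 +/+ heat C or p53 +/+ heat D ended all 3 calls, beside 1.93%, 2.14% and 2.15% of all probes. Without p53 +/+ control B or D, 1 call was left (2.38% and 2.44%, beside 2.41% and 1.71%). Heat pools C and D lay both below A and B in some members, called genes included, and both above them in others. This split was not counted over all tested probes, so whether it is particular to the members was not tested. Cdk4, the kinase of D cyclins, measured 68.5 and 71.6 in heat pools A and B and 31.7 and 32.3 in C and D. Rfc4, of the clamp loader, measured 39.5 and 37.9 and then 21.2 and 21.9, and Pcna 95.8 and 113 and then 71.2 and 68.1. Ccnd1 (cyclin D1) measured 1.81 and 1.80, then 0.931 and 0.909. In the other direction, E2f2 measured 5.56 and 6.06, then 9.46 and 8.14, E2f1 7.94 and 7.67, then 11 and 10.4, and Mcm10 16.2 and 14.8, then 19.2 and 22.3. Yolk sac and visceral endoderm markers ranged from 186.6 to 263.4 in summed intensity in p53 +/+ control and from 113.5 to 258.7 in p53 +/+ heat, with 1 of 10 lower. Their part in the heat differences was not tested.

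Tk1, the thymidine kinase, measured 27.4, 25.8, 28.4 and 28.5 in p53 +/+ control and 23.8, 26.0, 20.9 and 20.0 after heat (-0.29 ± 0.10, adjusted p = 0.117, limma). It was not called here. With values as deposited, Pold1, Rrm2 and Tk1 joined the 3 genes, 6 lower in all (14.3%, beside 8.96% of all probes), and the median of all probes then stood at -0.12 and that of the members at -0.31. With arrays centred on their medians 4 were called (9.52%, beside 4.56% of all probes). Of all calls 30.6% were then towards higher, against 41.7% after quantile normalization and 9.95% as deposited.

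**Figure D3:**
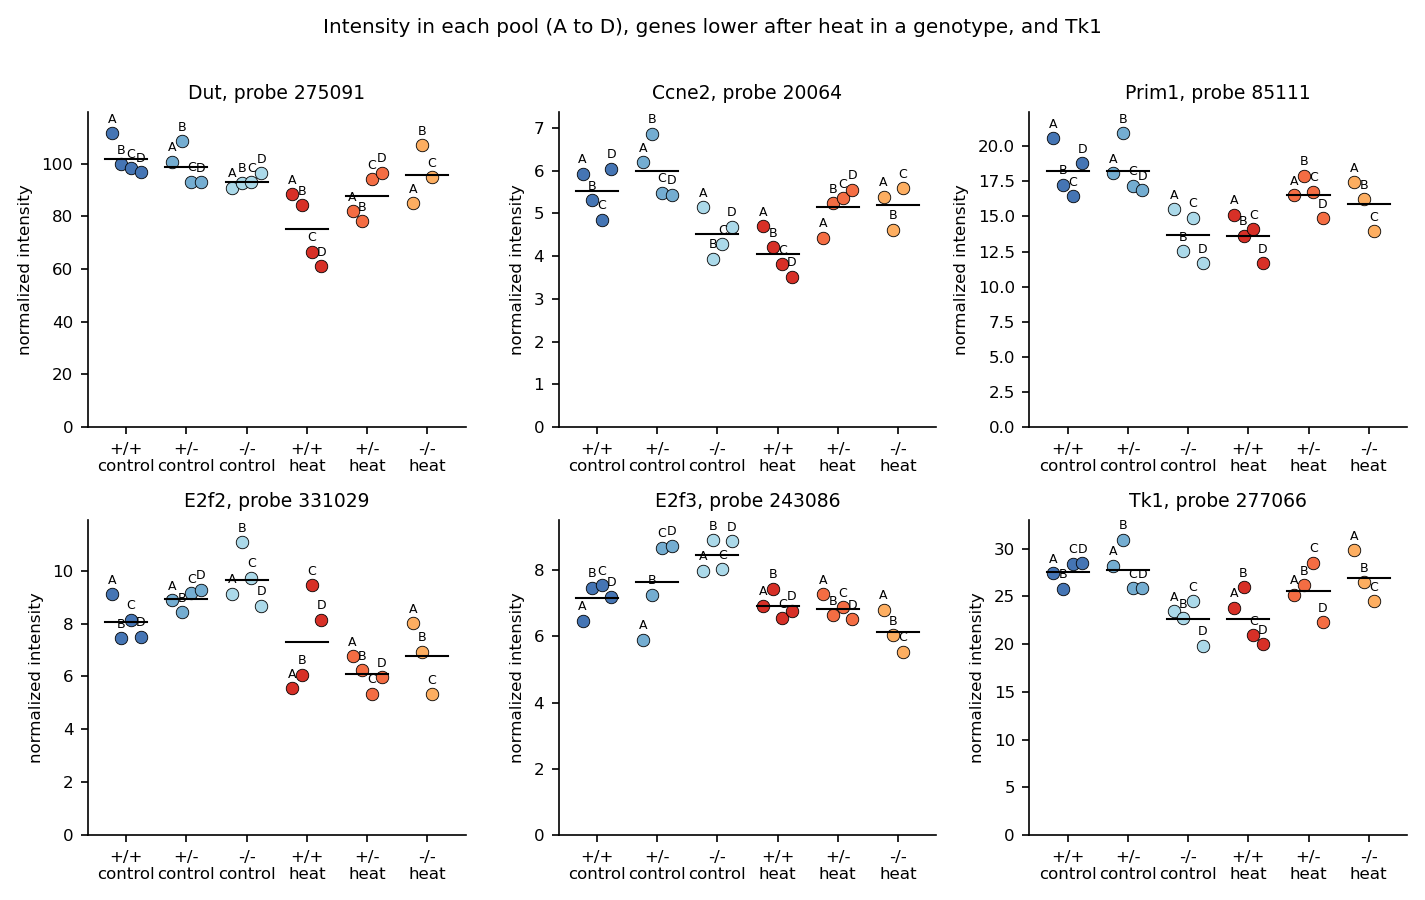
Normalized intensity (linear axis from 0) of Dut, Ccne2, Prim1, E2f2, E2f3 and Tk1 in each pool (points A to D), with the group mean as a bar. All 4 p53 +/+ heat pools of Dut (61.0 to 88.5), Ccne2 and Prim1 lie below the p53 +/+ control pools, and E2f2 and E2f3 in p53 -/- heat lie below p53 -/- control.

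In p53 +/- embryos E2f2, an activating E2F factor, fell after heat, the 1 call among 42 members (2.38%), beside 2.31% of all tested probes. It measured 8.87, 8.42, 9.15 and 9.29 in control and 6.76, 6.25, 5.35 and 5.98 after heat, with no overlap (-0.56 ± 0.14, adjusted p = 0.0409, limma). Among the others, 7 more had an unadjusted p under 0.05, all lower. With E2f2 these were 8 members, beside 15.7% of all tested probes. Pole measured 21.5 to 22.7 in control and 14.1 to 20.5 after heat (-0.36 ± 0.11, adjusted p = 0.0778) and Rrm2, the regulated subunit of ribonucleotide reductase, differed by -0.26 ± 0.09 (adjusted p = 0.134, limma). The median member differed by -0.13 and the median of all probes by 0.02. Leaving out any pool but p53 +/- heat D left no member called, and E2f2 was itself no longer called in any of the 8 such fits. Without the pools apart and with p53 -/- heat A and B kept, Pole (-0.44) and Gmnn (geminin, 0.32) were called in place of E2f2. These were 4.76% of the members, beside 7.15% of all probes. Of all calls 32.1% were towards higher, and 20.1% as deposited.

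In p53 -/- embryos E2f3 and E2f2 fell after heat, 2 of 42 members (4.76%), beside 5.53% of all tested probes. E2f3, also an activating factor, measured 7.98, 8.91, 8.03 and 8.88 in control and 6.81, 6.04 and 5.53 after heat (-0.47 ± 0.11, adjusted p = 0.0227, limma). E2f2 measured 9.14, 11.1, 9.74 and 8.68 in control and 8.02, 6.93 and 5.34 after heat (-0.53 ± 0.15, adjusted p = 0.0482, limma). In both genes every heat pool lay below every control pool, and pool C was the lowest. E2f1 measured 9.97 to 11 and then 7.38 to 9.58 and was not called (-0.35 ± 0.14, adjusted p = 0.119, limma).

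At an unadjusted p under 0.05 in limma, 8 members were higher and 6 lower in p53 -/- after heat, beside 25.9% of all tested probes. Slbp, which binds the stem-loop of histone mRNAs, measured 27.3, 26.1, 26.4 and 30.4 in control and 31.4, 51.6 and 34.8 after heat (0.48 ± 0.14, adjusted p = 0.0525, limma). Mcm7 differed by 2.02 ± 0.64 (adjusted p = 0.0635) and Ccnd3 by 1.07 ± 0.34 (adjusted p = 0.064, limma), with heat pools A and B high and pool C within the control range. Rfc2, of the clamp loader, measured 29.2 to 33.6 in control and 36.1, 49.1 and 40.5 after heat (0.44 ± 0.15, adjusted p = 0.0721, limma). A second, dimmer probe of Rfc2 measured 3.75 to 5.32 and then 3.49 to 4.26, the other direction, and was not called.

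The p53 -/- heat result also turned on single pools. Without p53 -/- heat C, 4 members were called (9.52%, beside 7.22% of all probes), all higher: Mcm7 by 2.80, Ccnd3 by 1.39, Rpa2 by 0.88 and Slbp by 0.55. Without p53 -/- control A, 4 were called (9.52%, beside 4.89% of all probes). Without p53 -/- control B, p53 -/- control D or p53 -/- heat B none was, beside 1.5%, 3.36% and 1.21%. The median of the members was 0.04, and it was -0.06 with arrays centred on their medians, where the median of all probes was -0.11. Of all calls 52.2% were towards higher, against 36.2% with that centring and 63.4% as deposited. With the array score as a covariate 0 were called, beside 1.41% of all probes. With each array's maximum as a covariate 12 were (8 higher, 4 lower, 28.6%, beside 23.6% of all probes). Without the pools apart, 8 of 42 (6 higher, 2 lower; 19%) were called with heat pools A and B kept, beside 18.4% of all probes. With pool C kept 1 was (2.38%), beside 1.79%. E2f3 was called in both. With pool C alone, that pool is taken to vary like the other groups. Of 11 mitosis markers 2 were higher in this comparison, with sums of 451.7 to 496.3 in 3 control pools and 534.8 to 557 after heat. Their sums were also higher after heat in p53 +/+, 483.9 to 497.8 in 3 control pools and then 507.9 to 547.6. In p53 +/- they were 475.3 to 510.8 in 3 control pools and then 508.7 to 601.6. In these 2 genotypes 0 of the 11 were called with heat.

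The heat pools were then compared between genotypes. Against p53 +/+ heat, 0 members were called in p53 -/- heat (0.56% of all probes). An unadjusted p under 0.05 in limma was held by 9, all higher, beside 20.4% of all probes. Rfc2 had the smallest p, with 33.4, 34.4, 26.3 and 26.1 in p53 +/+ heat and 36.1, 49.1 and 40.5 in p53 -/- heat (0.48 ± 0.15, adjusted p = 0.11, limma). As deposited, 8 members were called higher (Ccne2, Rfc2, Rfc5, Prim1, Cdc6, Dut, Tk1 and Slbp; 19%, beside 7.36% of all probes), while the median of all probes moved to 0.14 and 88.7% of all calls were towards higher, against 45.5% after quantile normalization and 33.7% with median centring. Without p53 -/- heat A, 5 were called, all higher (11.9%, beside 6.08% of all probes). With the array score as a covariate Rfc2 and Dut were called (4.76%, beside 5.01% of all probes).

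For p53 +/- against p53 +/+ heat pools, 0 members were called (0.141% of all probes). An unadjusted p under 0.05 was held by 4, all higher, beside 11.7% of all probes. Ccne2 had the smallest p, with a difference of 0.35 ± 0.11 (adjusted p = 0.223, limma). For p53 -/- against p53 +/- heat pools, 0 were called (0.00455% of all probes). An unadjusted p under 0.05 was held by 3, beside 4.51% of all probes. The smallest adjusted p was 0.918, for Rfc5. No setting that kept all pools gave a call in these 2 comparisons.

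The heat responses themselves were then compared, as differences of differences that share the control and heat pools of the sections before. Between p53 -/- and p53 +/+, 0 members were called (1.01% of all probes). An unadjusted p under 0.05 was held by 11, beside 22.1% of all probes, 9 higher and 2 lower in p53 -/-. Prim1 differed by 0.64 ± 0.16 (adjusted p = 0.0556), Ccne2 by 0.66 ± 0.17 (adjusted p = 0.058) and Tk1 by 0.54 ± 0.14 (adjusted p = 0.068, limma). With arrays centred on their medians, or as deposited, these 3 genes were called (7.14% of members), beside 1.83% and 2.96% of all probes. Without the pools apart and with p53 -/- heat A and B kept, 7 of 42 members were called (16.7%), beside 11.6% of all probes. Of all calls 32.9% were towards higher after quantile normalization and 75.4% as deposited. The mean of Prim1 went from 18.3 to 13.6 with heat in p53 +/+ and from 13.6 to 15.9 in p53 -/-. That of Ccne2 went from 5.53 to 4.06 and from 4.52 to 5.20, and that of Tk1 from 27.5 to 22.7 and from 22.6 to 26.9.

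Between p53 +/- and p53 +/+ responses 0 members were called (0% of all probes), with 0 calls in every alternative. An unadjusted p under 0.05 in limma was held by 2, both lower in p53 +/-, beside 6.02% of all probes. Between p53 -/- and p53 +/- responses 0 were called (0.0227% of all probes). An unadjusted p under 0.05 was held by 6, all higher in p53 -/-, beside 14.4% of all probes. Calls appeared with the pools apart left out alone, 9 of 42 (21.4%, beside 22.5% of all probes) with p53 -/- heat A and B kept and 1 (2.38%, beside 3.58%) with C kept. Rfc2 differed by 0.57 ± 0.20 (adjusted p = 0.304, limma) on its brightest probe and by -0.49 on the dimmer one. The 3 E2F factors had median differences of -0.42 in p53 -/- and -0.39 in p53 +/- against the p53 +/+ response, and none was called. They ran from -0.433 (E2f1) to -0.359 (E2f2) in p53 -/- and from -0.425 (E2f1) to -0.0961 (E2f3) in p53 +/-.

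By role, the 10 licensing genes (Orc1, Orc6, Cdc6, Cdt1 and Mcm2 to Mcm7) had a call in Mcm7 alone. Mcm4, the brightest of their probes, measured 60.4 to 93.3 in p53 +/+ control, 82.3 to 101 in p53 -/- control and 67.7 to 108 in the heat pools, and was not called. The 2 origin firing genes measured, Mcm10 and Cdc45, had no call, and Cdc45 measured 15.4 to 19.7 over all pools. Of the 11 replication fork genes, Prim1 and Rpa2 were called. Pcna, the brightest probe there, measured 89.6 to 103 in 3 p53 +/+ control pools (pool B has no value) and 93.2 to 111 in p53 -/- control. Of the 3 maturation genes, Fen1, Lig1 and Uhrf1, none was called, and the 2 Uhrf1 probes ordered the p53 +/+ heat pools differently. From A to D, probe 152085 measured 56.7, 54.2, 34.6 and 33.1, with C and D low, and probe 174103 measured 59.3, 49.2, 58.1 and 56.5, with B lowest. Of nucleotide supply, Dut was called and Rrm2 and Tk1 were not.

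Of the 8 cyclins and kinases, Ccnd3, Ccne2 and Cdk2 were called, besides 1 probe of Cdk6. Ccne1, the other cyclin E, measured 11 to 15.4 in p53 +/+ control and 11.7 to 16.1 after heat, with no call. Of the licensing inhibitor Gmnn and Slbp neither was called. The map of pools shows which members share the split between pools.

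**Figure D4:**
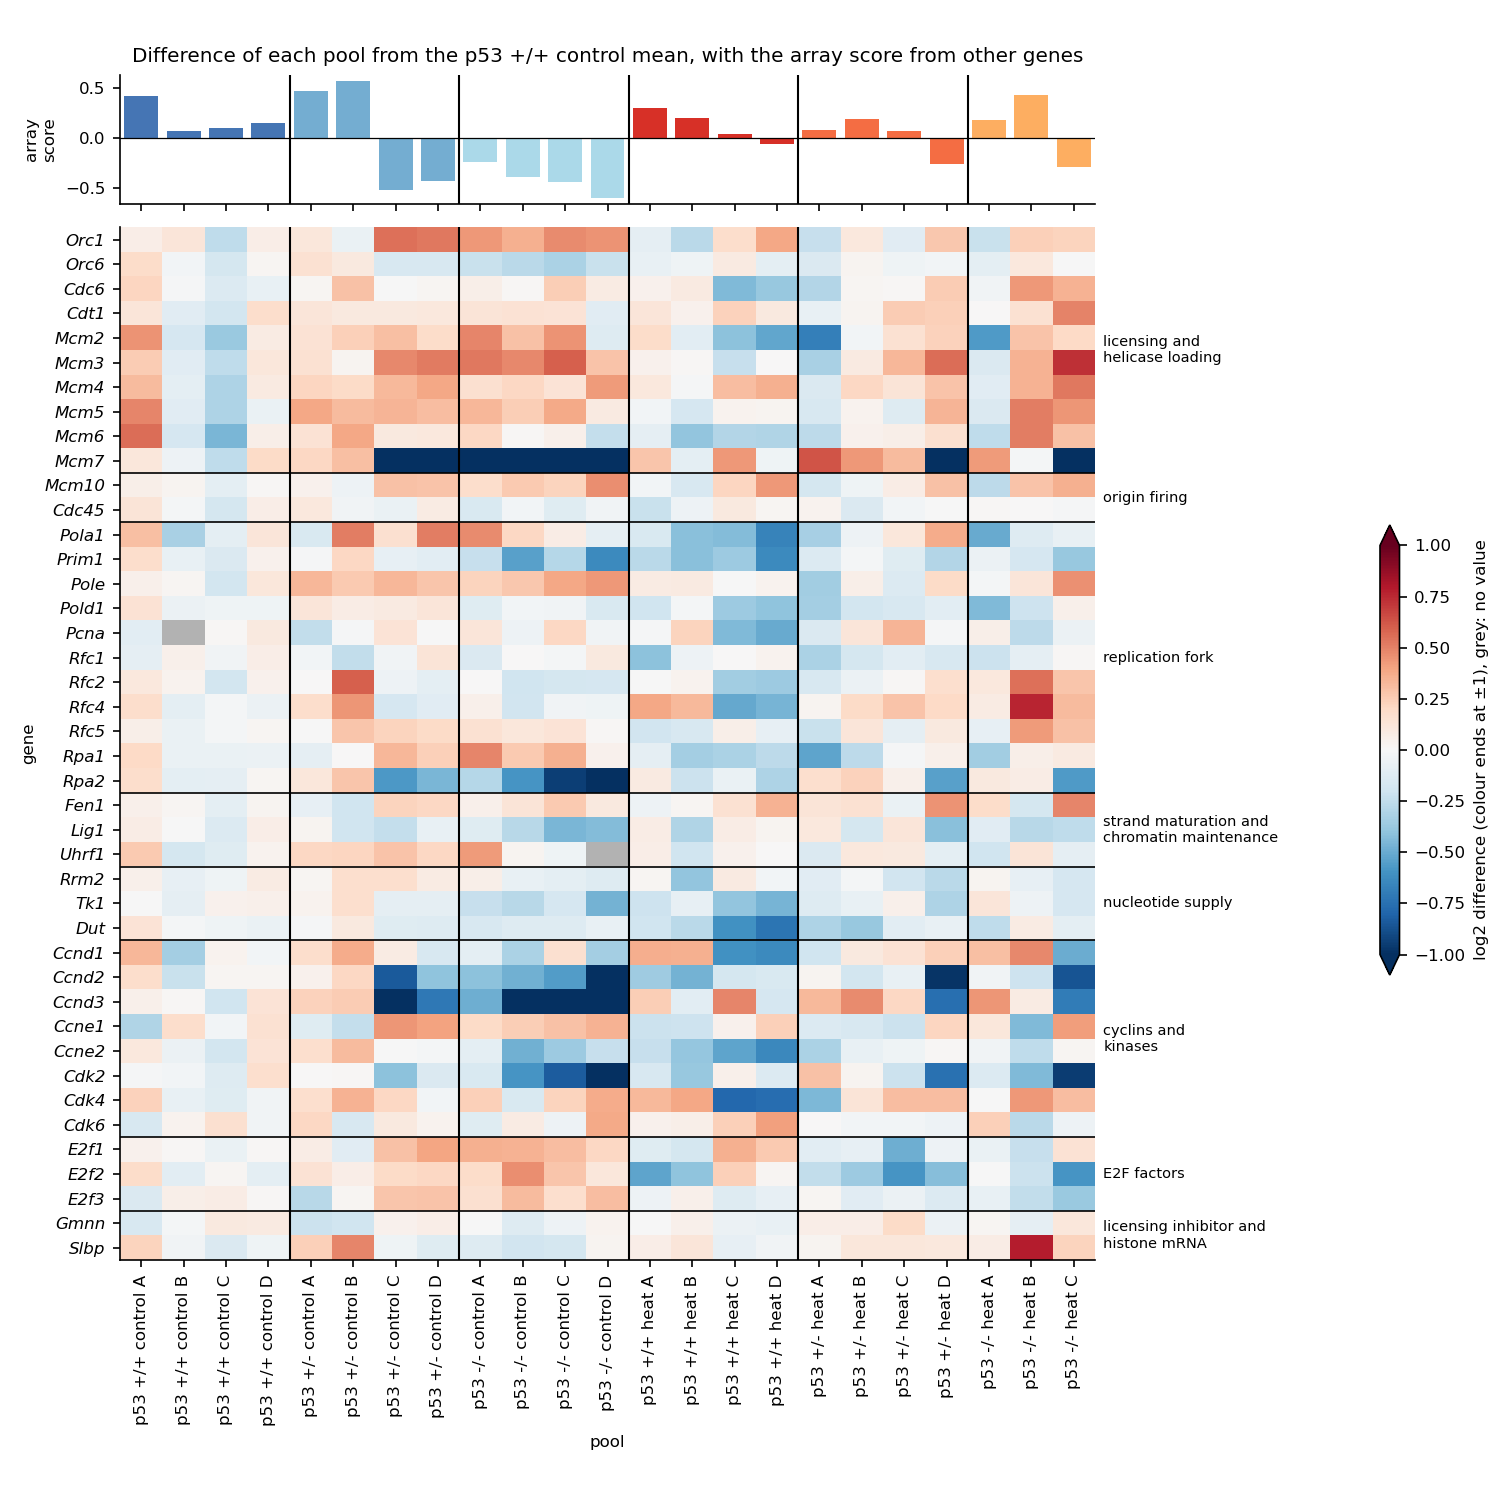
Log2 difference of each pool (columns) from the p53 +/+ control mean for the 42 tested members (rows, by role; colour ends at ±1, grey for no value), under bars of the array score from other genes. Mcm7, Ccnd3, Ccnd2, Rpa2 and Cdk2 are blue in the p53 -/- control pools, in p53 +/- control C and D, in p53 +/- heat D and in p53 -/- heat C, where the score is below -0.2. Ccnd2 and Cdk2 are blue in some pools of higher score too, such as p53 +/+ heat B (-0.47 and -0.38, score 0.203).

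Of the members with no tested probe, Gins1 and Rfc3 have no probe listed under their symbol, and Tyms is listed with a pseudogene on 1 probe, which was not used. Gins2 and Rrm1 have dim probes with too few values on the control arrays to be tested. Gins2 measured 0.32 to 0.516 on the heat arrays and had values on 6 control arrays, and Rrm1 measured 0.277 to 0.411 on the heat arrays with values on 2 control arrays. Dim second probes of Cdc6 and Ccnd3 have no value on any control array.

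Of 87 further replication and G1/S genes that are no members, 76 were tested. In p53 -/- against p53 +/+ control pools 2 rose and 4 fell, 6 of 76, beside 8.36% of all probes called there, so the list's share is near that of the array. By limma, Ticrr, which helps load Cdc45, rose by 0.66 ± 0.11 (adjusted p = 0.00527), and Cdkn1a (-2.02 ± 0.48, adjusted p = 0.0199), Hells, a chromatin remodeller (-0.49), and Pclaf, a Pcna-binding protein (-0.41), fell. With heat in p53 +/+ 3 of 76 were called, beside 3.08% of all probes: Cdkn1a rose by 2.11 ± 0.48 (adjusted p = 0.0175) and Pole3 by 0.46, and Rpa3, a partner of Rpa1 and Rpa2, fell by 0.41 (adjusted p = 0.0065, limma). With heat in p53 -/- 3 of 76 were called, beside 5.53%: Fbxo5 (0.57) and Tipin (0.41) rose and Chtf18, of a second clamp loader, fell (-0.66 ± 0.14, adjusted p = 0.0123, limma). In p53 +/- none of the 76 was called with heat. Cdkn1a was lower in p53 -/- than in p53 +/+ heat pools by -2.99 ± 0.52 (adjusted p = 0.00953) and in p53 +/- by -2.47 ± 0.48 (adjusted p = 0.0445, limma). The response of Ticrr differed between p53 -/- and p53 +/+ by -0.69 ± 0.17 (adjusted p = 0.047, limma). No gene of this list was called in the other comparisons.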

How the data were processed

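The values were analysed as deposited by the authors: 1-colour array intensities, a probe in each row and a pool in each column. Per the labels' protocols, biotin-labelled cRNA was hybridised to CodeLink arrays and stained with Alexa-conjugated streptavidin. For these intensities the software and normalization were not given in the sources used here. Missing-value codes on the heat arrays were set to missing, like the empty cells of the control arrays. Values under the array's 5th percentile were raised to it, and all values were taken to log2. The log2 values were then quantile-normalized with targets from 18702 probes complete on all 23 arrays. Tested probes had 3 or more values in every one of the 6 groups and a level above the 40th percentile on at least 3 arrays. Of the array's probes, 21615 had 1 gene symbol, 681 several and 13931 none.

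Differences were fitted with limma 3.58.1 in R 4.3.3 (6 group means, lmFit, eBayes with a trend), with Benjamini-Hochberg adjustment over all tested probes in each of the 12 comparisons. The fit was tested on simulated data. Alternatives were median centring, deposited values, no filter, no floor, the mean of a gene's probes, array weights, the letter as a block, covariates, fits of the compared groups alone and leaving out pools. The members and lists were chosen with earlier results of these data known. Named genes are all members called, those of highest level and smallest p in each role, those untested, and up to 4 called genes of the further list per comparison. Genes named for their values in single pools, or called under an alternative, were chosen after their values were seen. The number of arrays limits the precision.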

Additional observations from a re-analysis of the deposited data

Results flagged for a closer look

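Of 232 groups of 4 pools examined over the 47 tested probes of the members, 17 held a pool whose distance to the nearest other pool exceeded the 95% limit of Dixon's test for a group of 4. Chance alone sets about 1 in 20 groups apart.

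In p53 +/- control, pool B was high for Rfc2 (50.6, others 31.3 to 33.6), Mcm6 (40.6, others 33.1 to 34.3) and Cdc6 (19.9, others 16.2 to 16.5), and pool C was high for Uhrf1 (68.8, others 65.1 to 65.5). In p53 +/+ control, pool A was high for Pold1 (26.1, others 22.7 to 23) and Rpa1 (9.88, others 8.19 to 8.24), and pool C was low for Orc1 (4.79, others 5.98 to 6.2). In p53 -/- control, pool A was high for Rfc2 (33.6, others 29.2 to 29.9) and pool D was low for Cdt1 (57.4, others 67.7 to 68.7), and pool B was low for the dimmer Tk1 probe (18.3, others 20.6 to 20.8).

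In p53 +/+ heat, pool B was low for Lig1 (5.06, others 6.38 to 6.56) and pool C was low for Mcm3 (48.6, others 57.2 to 58.9), and pool A was low for the dimmer Rfc2 probe (3.81, others 4.32 to 4.4). In p53 +/- heat, pool D was high for Ccne1 (15.8, others 11.7 to 12.4), pool C was low for E2f1 (6.17, others 8.02 to 8.34) and pool A was low for Slbp (30.4, others 32.1 to 32.3) and high for the dimmer Rfc2 probe (5.82, others 4.1 to 4.35). The second peak of the deposited intensities lay at 36.6 on the array of p53 +/- control B and at 39.2 on that of p53 +/+ control A, below 45.1 as on the 2 others under that value. Its part in these values was not tested.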

How the results depend on the processing

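Of 506 alternative values of the 12 counts of called members and the 12 member medians, 419 stayed close to the main value. A count was close if equal, or if both counts were above 0 and within 1.5 times each other. In 8 of the 12 comparisons the main count was 0, and counts that stayed at 0 were close. The 419 therefore do not measure how stable the calls were. With all pools kept, counts in the 4 others ran from 0 to 6 and 0 to 4 for heat in p53 +/+ and +/-. They ran from 0 to 12 for heat in p53 -/- and from 0 to 19 for p53 -/- against +/+ control pools. The shares of all probes beside these ends are given below. Higher and lower calls were counted together, so a count could stay close while its genes or directions changed. A median was close if within 0.0634 (the SD between pools of a group). No called gene changed sign in any alternative. With median centring the member median was -0.191 for heat in p53 +/+ and -0.0562 for heat in p53 -/-. It was 0.158 for p53 -/- against +/+ heat pools and 0.0746 for the response of p53 +/- minus +/+. For the response of p53 -/- minus +/+ 3 members were called (7.14%, beside 1.83% of all probes). With deposited values the count and median were 6 (14.3%, beside 8.96% of all probes) and -0.309 for heat in p53 +/+. In p53 +/- they were 2 (4.76%, beside 1.81%) and -0.235. For p53 -/- against +/+ heat pools they were 8 (19%, beside 7.36%) and 0.339. The response of p53 -/- minus +/+ had 3 (7.14%, beside 2.96%) and 0.35. The count for heat in p53 -/- was 1 (2.38%, beside 2.79%). The medians were 0.224 for p53 +/- against +/+ and 0.147 for p53 -/- against +/- heat pools. They were 0.144 for the response of p53 +/- minus +/+ and 0.253 for that of p53 -/- minus +/-. Fits of the compared groups alone called 0 members for heat in p53 +/+ (beside 3.96% of all probes) and 0 in p53 +/- (beside 0.324%). They called 1 in p53 -/- (2.38%, beside 2.96%) and 15 for p53 -/- against +/+ control pools (36.6%, beside 26%). With each array's maximum as a covariate the counts were 4 for heat in p53 +/- (9.52%, beside 5.68%) and 12 in p53 -/- (28.6%, beside 23.6%). For p53 -/- against +/+ they were 3 in control pools (7.14%, beside 5.01%) and 3 in heat pools (7.14%, beside 3.97%). The response of p53 -/- minus +/+ had 1 (2.38%, beside 1.55%). The array score separates p53 +/+ from p53 -/- control pools without overlap. With it as a covariate the counts were 2 for heat in p53 +/- (4.76%, beside 5.34%) and 0 in p53 -/- (beside 1.41%). For p53 -/- against +/+ they were 0 in control pools (beside 0.0546%) and 2 in heat pools (4.76%, beside 5.01%). Array weights gave 5 for heat in p53 -/- (11.9%, beside 5.6%) and 19 for p53 -/- against +/+ control pools (45.2%, beside 27.7%). They gave 1 for the response of p53 -/- minus +/+ (2.38%, beside 1.78%). No filter on level gave 1 for heat in p53 -/- (2.38%, beside 4.93%). The causes were not tested.

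The labels do not say whether the pool letters pair the samples. Over 55 pairs of pools with the same letter the correlation of deviations ran from -0.357 to 0.68. It was not set against pairs of different letters, so pairing was not tested. With the letter as a replicate block 0 members were called for heat in p53 +/-, beside 2.7% of all probes. It gave 9 for p53 -/- against +/+ control pools (21.4%, beside 13% of all probes). Heat gave 3 in p53 +/+ (7.14%, beside 3.67%) and 2 in p53 -/- (4.76%, beside 4.99%). In p53 -/- E2f3 was kept, E2f2 was lost and Mcm7 was gained as a higher call (1.79, adjusted p = 0.0404, limma).

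A pair of settings were chosen after seeing the data and leave out pools by their levels, so their counts are descriptions. The first leaves out p53 +/- control C and D, p53 +/- heat D and p53 -/- heat C. Its counts for heat were 2 in p53 +/- (4.76%, beside 7.15% of all probes) and 8 in p53 -/- (19%, beside 18.4%). In control pools p53 -/- gave 12 against +/+ (28.6%, beside 18.3%) and 13 against +/- (31%, beside 29.9%). The responses of p53 -/- minus +/+ and minus +/- gave 7 (16.7%, beside 11.6%) and 9 (21.4%, beside 22.5%). With p53 -/- heat A and B left out in place of C, heat in p53 +/- gave 2 (4.76%, beside 11.6% of all probes). In control pools p53 -/- then gave 12 against +/+ (28.6%, beside 19.6%) and 14 against +/- (33.3%, beside 31.5%). Counts that use p53 -/- heat rest on pool C alone in this setting and are left out of this list. The medians then were 0.125 for heat in p53 -/-, 0.188 and 0.156 for p53 -/- against +/+ and +/- heat pools, and 0.178 for the response of p53 -/- minus +/+.

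Leaving out 1 pool in turn gave 0 to 3 calls for heat in p53 +/+, beside 1.71% to 3.53% of all probes. Heat gave 0 to 1 in p53 +/- (beside 0.999% to 3.11%) and 0 to 4 in p53 -/- (beside 1.21% to 7.22%). In control pools p53 -/- gave 0 to 5 against +/+ (beside 1.4% to 8.87%) and 0 to 2 against +/- (beside 0% to 3.07%). For p53 -/- against +/+ heat pools there were 0 to 5 (beside 0.101% to 6.08%, member median 0.0646 to 0.159). The response of p53 -/- minus +/+ had 0 to 2 (beside 0.0365% to 1.54%, member median 0.0674 to 0.164).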
